A study of Mus musculus with 18 samples.

Results

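Abhd14a, Abhd14b, Wdr82, Sorl1, Sc5d and Mrpl3 are 6 genes of mouse chromosome 9 whose array signal differed between Rpe65 knockout and control retinas in every age group, 2, 4 and 6 months. They were chosen for that difference, and because several of them lie close together. All probe sets that the platform annotation gives to 1 of these genes alone were taken, which made 14 probe sets of 34945 and 6 genes of 18193. The choice used the genotype values themselves, so differences between genotypes are given below as descriptions without a test, and only the effect of age, averaged over both genotypes, was tested in them.

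The study measured RNA of the mouse retina on 18 one-colour oligonucleotide arrays, 1 retina each, in 6 groups of 3. The knockouts are given by the labels only as RPE65-/-, with no background strain, and the controls as C57BL/6, in both cases aged 2, 4 or 6 months. RPE65 is the isomerase of the retinal pigment epithelium that remakes the visual chromophore, and its absence deprives rods of that chromophore. Nothing in the labels says whether the retinas came from separate mice, so p-values measure the spread between these samples. The arrays themselves showed a genotype difference besides the knockout: by Xist and Y-linked probe sets, 8 of 9 knockouts were male and 1 female, against 3 male and 6 female controls.

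The 6 genes act in several cell processes. ABHD14A and ABHD14B belong to the alpha/beta hydrolase domain family, whose members include lipases and esterases, and WDR82 is a WD-repeat subunit of the SET1 histone H3K4 methyltransferase complexes and of a nuclear PP1 phosphatase complex. SORL1 is a sorting receptor of the VPS10 family that carries cargo such as the amyloid precursor protein between the Golgi and endosomes with the retromer. SC5D is the sterol C5-desaturase of late cholesterol synthesis, and MRPL3 is a protein of the large subunit of the mitochondrial ribosome.

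The genes include 2 pairs that are adjacent among the measured genes of the chromosome and that differed in opposite directions. In RefSeq's gene table, Abhd14a and Abhd14b lie on opposite strands and overlap, and Sorl1 and Sc5d lie apart from each other on the same strand. The 250 bases before the annotated start are printed for these 4 genes, 5′ to 3′ on the gene's own strand, because they are the pairs that differed in opposite directions. They are RefSeq sequences of GRCm38.p6: chr9:106447679-106447928 on the minus strand for Abhd14a, chr9:106448390-106448639 on the plus strand for Abhd14b, chr9:42124298-42124547 on the minus strand for the first listed start of Sorl1, and chr9:42264301-42264550 on the minus strand for Sc5d. Capitals mark a match to the E-box CACGTG.
Abhd14a: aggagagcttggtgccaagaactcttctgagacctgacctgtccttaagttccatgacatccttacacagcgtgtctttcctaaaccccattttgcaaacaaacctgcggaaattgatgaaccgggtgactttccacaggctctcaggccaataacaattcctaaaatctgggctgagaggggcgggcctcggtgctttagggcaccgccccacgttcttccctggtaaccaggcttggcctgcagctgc
Abhd14b: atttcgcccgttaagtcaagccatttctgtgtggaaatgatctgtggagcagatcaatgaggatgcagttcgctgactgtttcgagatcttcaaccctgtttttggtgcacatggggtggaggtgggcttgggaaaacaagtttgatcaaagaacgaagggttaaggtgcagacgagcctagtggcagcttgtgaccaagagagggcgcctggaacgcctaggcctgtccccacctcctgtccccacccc
Sorl1: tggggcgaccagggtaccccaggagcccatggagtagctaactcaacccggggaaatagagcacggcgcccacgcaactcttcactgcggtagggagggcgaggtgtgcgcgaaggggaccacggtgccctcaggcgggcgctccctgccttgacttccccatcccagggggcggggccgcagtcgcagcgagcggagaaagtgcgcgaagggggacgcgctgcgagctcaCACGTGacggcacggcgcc
Sc5d: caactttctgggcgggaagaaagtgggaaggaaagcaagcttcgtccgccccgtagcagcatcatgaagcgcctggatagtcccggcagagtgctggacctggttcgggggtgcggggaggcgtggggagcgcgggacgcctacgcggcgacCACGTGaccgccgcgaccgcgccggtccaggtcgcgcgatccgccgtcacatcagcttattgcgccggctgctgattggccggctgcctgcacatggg
The windows of Abhd14a and Abhd14b are separated by 461 bases. From the starts of these windows the genes run away from each other, so these starts do not account for the overlap in the gene table. Both held 53.2% G and C, near the median of 52.4% over all 32851 windows in the RefSeq promoter table, with 7 and 8 CpG dinucleotides against a median of 6. The windows of Sorl1 and Sc5d held 69.6% and 67.6% G and C with 26 and 30 CpG dinucleotides, and that of Wdr82 70.8% with 24. Mrpl3 had the lowest share of the 6, 42.8% with 7 CpG dinucleotides.

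Letters of 5 motifs were searched on both strands of each window, and a match is a description and not a binding site. CACGTG, present in 6.02% of all windows, was found from -19 to -14 in Sorl1 and from -98 to -93 in Sc5d, counted from the start. TGACGTCA, present in 1.55%, was found in Wdr82 from -98 to -91, and TAATCC, present in 6.25%, in Mrpl3 from -105 to -100. The GC box GGGCGG, in 32.7% of windows, matched in Abhd14a, Wdr82, Sorl1 and Sc5d, and the CCAAT box CCAAT, in 33.8%, in Abhd14a, Sc5d and Mrpl3. Abhd14b matched none of the 5 sets of letters. No match overlapped another.

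Each deposited value is the signal of a probe set on an array relative to that probe set's own reference, and for all 14 probe sets this reference was the median over the arrays, so that 1 means the middle of the 18 arrays. Such ratios compare arrays within a probe set, and levels of different genes cannot be set against each other with them. The signals were therefore also expressed in units of the array's median signal, which still differ in probe affinity between genes. The brightest probe set of a gene, by mean signal, leads its description.

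Abhd14a had the largest difference of the 6 genes. Its brightest probe set, 1441945_s_at, had ratios in the knockouts of 0.29, 0.233 and 0.305 (2 months), 0.383, 0.313 and 0.332 (4 months) and 0.25, 0.268 and 0.336 (6 months). In the controls the ratios were 1.62, 1.86 and 1.92 (2 months), 2.34, 1.82 and 1.96 (4 months) and 2.56, 2.12 and 1.88 (6 months). Every knockout was below every control, and the highest knockout, retina 25 at 4 months, was far from the lowest control, retina 10 at 2 months. The log2 difference, knockout minus control, was -2.71, -2.57 and -2.94 at 2, 4 and 6 months, each with an SE of 0.17, and -2.74 ± 0.10 (SE) over the mean of the ages, which is 6.68-fold. Mean signal was 4.07 array medians in the knockouts and 27.2 in the controls.

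The second Abhd14a probe set, 1425699_a_at, had the same direction. Its knockout ratios were 0.524, 0.533 and 0.377 (2 months), 0.309, 0.502 and 0.508 (4 months) and 0.499, 0.407 and 0.447 (6 months). Its control ratios were 1.65, 1.48 and 1.47 (2 months), 2.44, 1.76 and 1.75 (4 months) and 1.98, 1.83 and 1.81 (6 months). Again all 9 knockouts lay below all 9 controls, with log2 differences of -1.69, -2.19 and -2.06 (SE 0.21) and -1.98 ± 0.12 over the ages. The array maker's suffix _s_at marks probes shared by transcripts of more than 1 gene and _a_at those shared by transcripts of 1 gene, and the positions of the probes were not used here.

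Abhd14b, which in the gene table overlaps Abhd14a on the other strand, differed the other way. Its only probe set, 1451326_at, had knockout ratios of 1.43, 1.66 and 1.51 (2 months), 1.71, 1.68 and 1.72 (4 months) and 1.79, 1.53 and 1.53 (6 months). The control ratios were 0.49, 0.365 and 0.438 (2 months), 0.412, 0.484 and 0.469 (4 months) and 0.557, 0.435 and 0.572 (6 months). All 9 knockouts were above all 9 controls. The log2 difference was 1.84, 1.91 and 1.64 at the 3 ages (SE 0.15) and 1.79 ± 0.08 over them, or 3.47-fold, from 4.97 array medians in the controls to 17.1 in the knockouts.

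**Figure D1:**
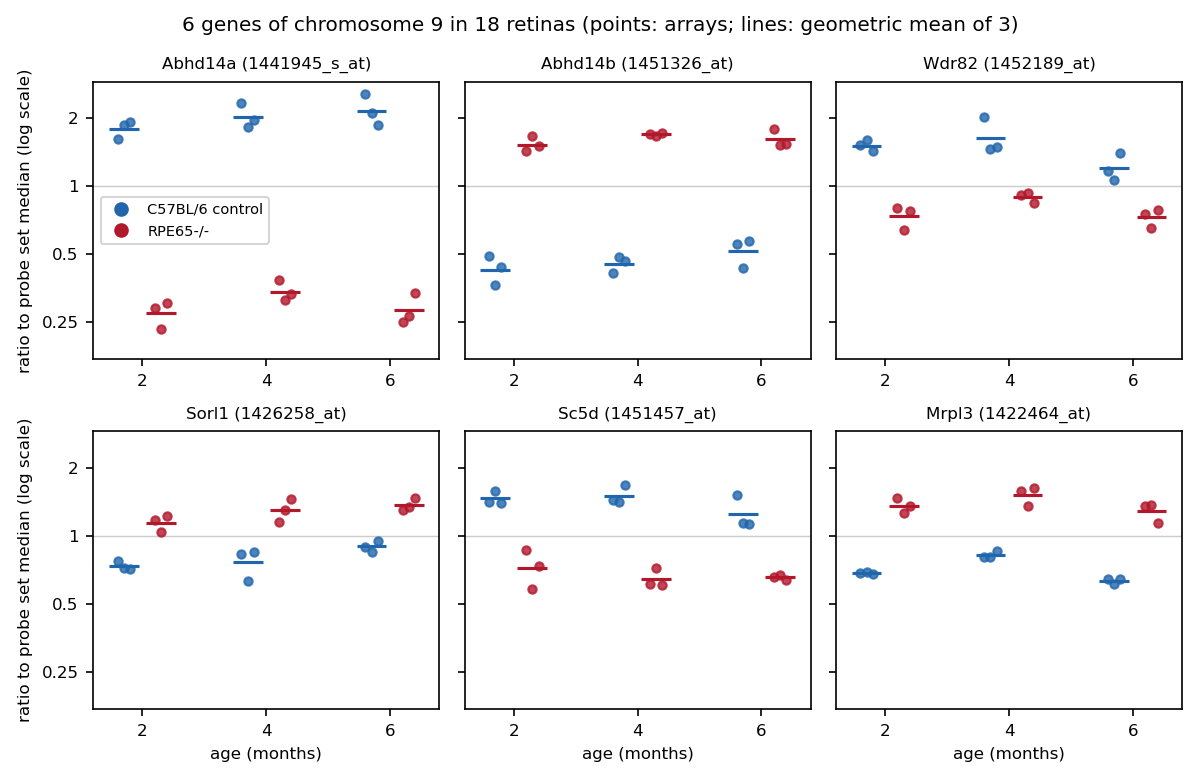
Ratio of the brightest probe set of each gene to its median over the arrays, on a log scale, against age in months; points are arrays, lines the geometric mean of 3. Knockouts (red) and controls (blue) do not overlap in any panel, with knockouts lower for Abhd14a, Wdr82 and Sc5d and higher for Abhd14b, Sorl1 and Mrpl3.

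Wdr82, the SET1 complex subunit, lies near the Abhd14 pair, 8 measured genes before Abhd14a, and was lower in the knockouts. Its only probe set, 1452189_at, had knockout ratios of 0.804, 0.642 and 0.777 (2 months), 0.914, 0.932 and 0.844 (4 months) and 0.758, 0.656 and 0.787 (6 months). The control ratios were 1.52, 1.61 and 1.43 (2 months), 2.03, 1.46 and 1.49 (4 months) and 1.17, 1.07 and 1.40 (6 months). The groups did not overlap over all 18 arrays, and the nearest were knockout retina 31 at 4 months and control retina 2 at 6 months. The log2 difference was -1.04, -0.87 and -0.72 (SE 0.16) and -0.88 ± 0.09 over the ages, or 1.84-fold, with signals of 5.29 array medians in the knockouts and 9.80 in the controls.

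Sorl1, the sorting receptor, was higher in the knockouts by the smallest difference of the 6 genes. The brightest of its 3 probe sets, 1426258_at, had knockout ratios of 1.17, 1.04 and 1.22 (2 months), 1.16, 1.30 and 1.46 (4 months) and 1.30, 1.35 and 1.48 (6 months). The control ratios were 0.778, 0.725 and 0.714 (2 months), 0.836, 0.633 and 0.852 (4 months) and 0.897, 0.851 and 0.956 (6 months). All 9 knockouts were above all 9 controls, though knockout retina 2 at 2 months and control retina 3 at 6 months came close. The log2 difference was 0.63, 0.76 and 0.61 (SE 0.14) and 0.67 ± 0.08 over the ages, or 1.59-fold.

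The other Sorl1 probe sets did not share this difference. 1453003_at ranged from 0.803 to 1.25 in the knockouts and from 0.820 to 1.18 in the controls, with a log2 difference over the ages of 0.17 ± 0.12. 1460390_at, made from the same source sequence as the brightest, ranged from 0.568 to 1.07 in the knockouts and from 0.570 to 1.47 in the controls, with -0.33 ± 0.18. Over all ages both overlapped widely between genotypes. At 6 months alone, the knockouts of 1460390_at (0.894 to 1.07) lay below its controls (1.09 to 1.28), opposite in direction to the brightest. The signal of 1453003_at was 11.1 array medians in the knockouts, and that of 1460390_at was 1.32.

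Sc5d, the sterol desaturase next to Sorl1, was lower in the knockouts by its brightest probe set, 1451457_at. The knockout ratios were 0.872, 0.583 and 0.735 (2 months), 0.614, 0.726 and 0.611 (4 months) and 0.66, 0.675 and 0.641 (6 months). The control ratios were 1.42, 1.58 and 1.41 (2 months), 1.45, 1.41 and 1.68 (4 months) and 1.52, 1.14 and 1.13 (6 months). The groups did not overlap. The log2 difference was -1.03, -1.22 and -0.93 (SE 0.16) and -1.06 ± 0.09 over the ages, or 2.08-fold, with 4.25 array medians in the knockouts and 8.86 in the controls.

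The remaining Sc5d probe sets did not share this difference, and lay slightly on the other side of 0. 1434520_at had 0.14 ± 0.11 over the ages and 1424709_at, made from the source sequence of the brightest, 0.15 ± 0.14. Both overlapped between genotypes, and no direction is read from them. The signal of 1434520_at was 4.61 array medians in the knockouts and 4.18 in the controls. That of 1424709_at was low, at 1.27 in the knockouts and 1.13 in the controls.

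Mrpl3, the mitochondrial ribosomal protein, was higher in the knockouts by 2 of its 4 probe sets. The brightest, 1422464_at, had knockout ratios of 1.47, 1.27 and 1.36 (2 months), 1.59, 1.35 and 1.64 (4 months) and 1.35, 1.38 and 1.14 (6 months). The control ratios were 0.688, 0.696 and 0.681 (2 months), 0.806, 0.806 and 0.858 (4 months) and 0.646, 0.611 and 0.644 (6 months). All 9 knockouts were above all 9 controls, and the spread within groups was the smallest of the 6 brightest probe sets (SD 0.10 on the log2 scale). The log2 difference was 0.99, 0.89 and 1.02 (SE 0.12) and 0.97 ± 0.07 over the ages, or 1.95-fold.

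A second Mrpl3 probe set from the same source sequence, 1422463_a_at, gave 0.75, 0.66 and 0.90 (SE 0.15) and 0.77 ± 0.09 over the ages. Its groups were apart at each age but not over all ages, since control retina 24 at 4 months (1.01) was above knockout retina 5 at 6 months (0.989). The dimmer 1440636_at and 1431006_at gave 0.10 ± 0.12 and -0.23 ± 0.16 over the ages, and overlapped over all ages. Their direction was not the same at each age: 1440636_at had 0.35 at 4 months and -0.16 at 6 months. At 6 months the knockouts of 1440636_at (0.852 to 0.983) lay below its controls (0.995 to 1.13), opposite in direction to the brightest.

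**Figure D2:**
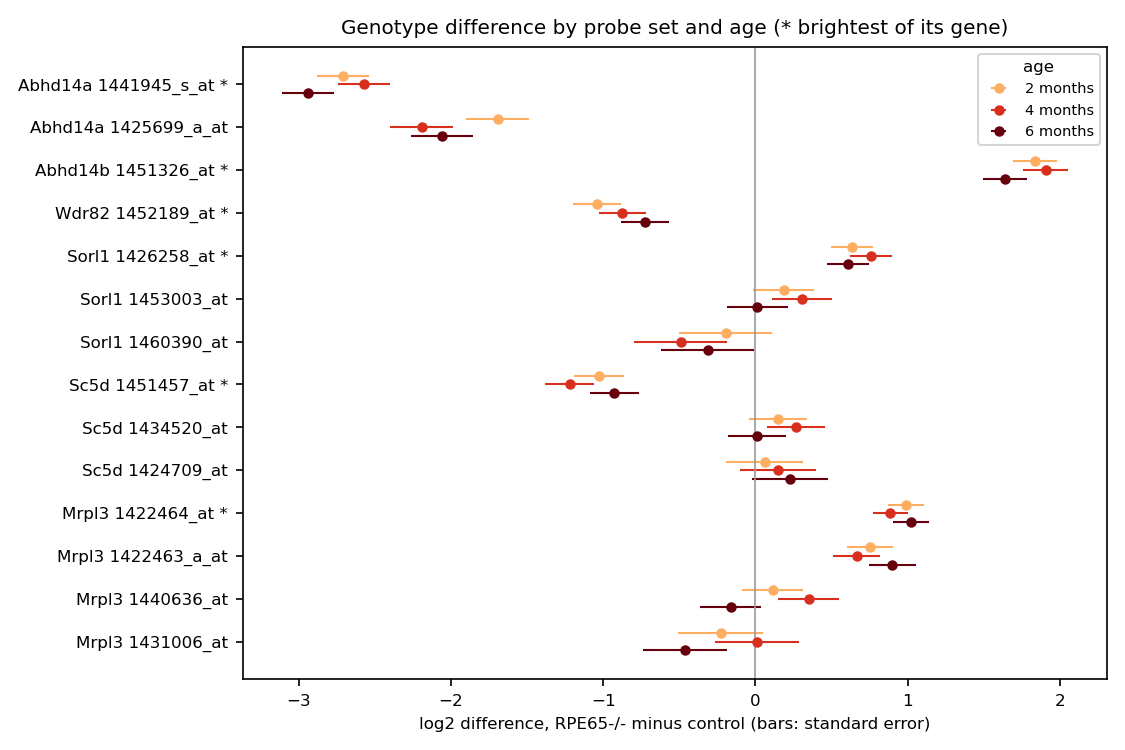
Log2 difference between knockout and control for each of the 14 probe sets at 2, 4 and 6 months; points are fitted values and bars standard errors. Both Abhd14a probe sets lie below 0. The points of the further probe sets of Sorl1 and Sc5d and 2 of the 4 of Mrpl3 lie between -0.49 and 0.35. Over the mean of the ages, which is not plotted, these probe sets lie between -0.33 and 0.17.

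Counted over probe sets by limma with Benjamini-Hochberg adjustment, the members past an adjusted p of 0.05 were 8 of 14 at 2 months (4 higher, 4 lower), where 1.15% of all probe sets passed (0.429% higher, 0.721% lower). At 4 months they were 7 of 14 (3 higher, 4 lower), where 1.06% passed (0.481% higher, 0.581% lower), and at 6 months 6 of 14 (3 higher, 3 lower), where 0.707% passed (0.252% higher, 0.455% lower). Over the mean of the ages they were 8 of 14 (4 higher, 4 lower), where 4.65% passed (2.05% higher, 2.6% lower). The choice of the genes fixed these counts, and nothing is read from them. At 6 months Sorl1 1426258_at and Wdr82 1452189_at missed the threshold and passed with 1 probe set per gene in the fit, where 1.13% of genes passed.

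The groups did not overlap at any age, in 1 direction, for 6 of the 6 brightest and 2 of the 8 further probe sets, and for 2.45% of all probe sets. Over all ages at once, 6 of the brightest and 1 of the further probe sets had all 9 knockouts beyond all 9 controls, and 1.32% of all probe sets did. The median absolute log2 difference over the mean of the ages was 1.01 in the brightest, 0.20 in the further and 0.20 in all probe sets. In the per-gene fit the largest adjusted p of the 3 ages was 0.0451 for Sorl1, just inside the threshold. Just outside it were Ppp2r1b and Nxpe4, both at 0.0522.

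The genotype differences were alike in size at the 3 ages in the brightest probe sets, with a range between ages from 0.14 (Mrpl3) to 0.37 (Abhd14a) on the log2 scale. Differences of the genotype effect between ages were not tested. The age effect itself, averaged over both genotypes, was not used in the choice of the genes and was tested in limma over all probe sets. None of the 14 probe sets passed an adjusted p of 0.05 at 4 against 2 months, where 0.00286% of all probe sets passed, or at 6 against 2 months, where 1.73% passed. At an unadjusted limma p under 0.05 there were 1 and 2 of 14 (7.14% and 14.3%), where 8.07% and 16.7% of all probe sets were, so the members were near the background.

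Mrpl3 1422464_at was 0.21 ± 0.08 (SE) higher on the log2 scale at 4 than at 2 months (limma adjusted p = 0.566), with a 95% interval of 0.03 to 0.39. Sorl1 1426258_at was 0.27 ± 0.10 higher at 6 than at 2 months (limma adjusted p = 0.168), with an interval of 0.06 to 0.49. Mrpl3 1422463_a_at was -0.30 ± 0.11 at 6 against 2 months (limma adjusted p = 0.164), with an interval of -0.54 to -0.07. The brightest Mrpl3 probe set did not share that value, at -0.10 ± 0.08.

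For Abhd14a 1441945_s_at the age differences were 0.25 and 0.16 (SE 0.12) at 4 and 6 against 2 months, for Abhd14b 0.12 and 0.18 (SE 0.10), for Wdr82 0.20 and -0.17 (SE 0.11) and for Sc5d 1451457_at -0.06 and -0.18 (SE 0.12). A p that misses the threshold does not show that age has no effect, and the 95% intervals of these 4 probe sets reach 0.51 (Abhd14a) on the higher side and -0.43 (Sc5d) on the lower. The median absolute age difference of the 14 was 0.14 and 0.13, and 0.19 and 0.24 over all probe sets. The 6-month arrays had median signals of 32.8 to 45.8 and the others 6.8 to 14.3 before scaling, so age 6 months and that array difference cannot be told apart. Sex was also unevenly spread over the ages. The female retinas were knockout 6 and controls 1, 2 and 3 at 6 months, controls 9 and 10 at 2 months and control 24 at 4 months. The number of probe sets passing at 6 against 2 months was 605, and 46 with sex as a covariate.

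**Figure D3:**
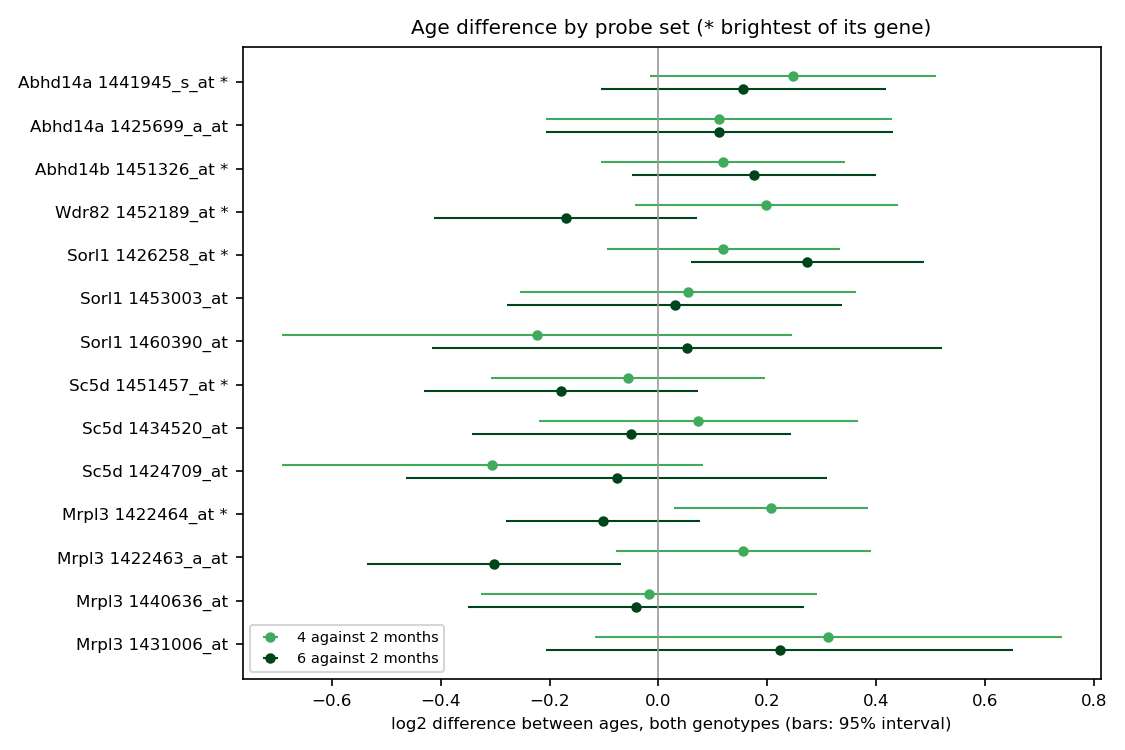
Log2 difference between ages, averaged over both genotypes, for each of the 14 probe sets; points are fitted values and bars 95% intervals. Most intervals span 0, and none of the 14 passed the adjusted threshold.

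The arrays were checked against markers of the tissue and of its neighbours. Summed signal of 7 of 8 rod markers measured was 18785 to 25076 in the controls and 16343 to 18974 in the knockouts, where the common array median was 17, so the retina's defining markers were present. Summed signal of 6 of 6 cone markers was 2773 to 3719 in the controls and 570 to 1162 in the knockouts, apart in every array like the brightest probe sets of the 6 genes, and the part of this in their differences was not tested. In bulk retina, fewer cells of a type and less RNA per cell cannot be told apart. Lens markers (11 of 12) summed to 84.6 to 11031 in the controls and 37.1 to 32610 in the knockouts, and pigment epithelium markers (11 of 11, Rpe65 among them) to 405 to 7804 and 2012 to 8950. Without the 2 knockouts of highest lens signal at 2 months the differences over the ages were -2.71 for Abhd14a, 1.76 for Abhd14b, -0.84 for Wdr82, 0.68 for Sorl1, -0.97 for Sc5d and 1.0 for Mrpl3. With sex as a covariate they were -2.70, 1.85, -0.91, 0.75, -1.06 and 0.93 in the same order. Rpe65 itself, on chromosome 3, had ratios of 0.0348 to 0.815 in the knockouts and 0.609 to 46.7 in the controls, which overlapped at retina 11 of the 2-month controls.

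The genes around the 6 were then taken without regard to their values, 5 measured genes on each side. Of 37 distinct neighbours, 2 passed an adjusted p of 0.05 over the mean of the ages in limma, both lower in the knockouts, which is 5.41%. This count is from the fit over all probe sets, where 4.65% of probe sets passed. With 1 probe set per gene in the fit the same 2 passed, where 5.66% of all genes did. At an unadjusted limma p under 0.05 there were 9 of 37, where 17.6% of all genes were. The median log2 difference of the neighbours was -0.01, and 14 of them were measured by dim probe sets with a fixed reference.

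Pik3r4, the regulatory subunit of the class III PI 3-kinase between Mrpl3 and Wdr82, was lower by -0.89 ± 0.13 (limma adjusted p = 0.000875), with all 9 knockouts below all 9 controls. 1700063D05Rik, the gene next to Sorl1, was lower by -1.71 ± 0.45 (limma adjusted p = 0.0471), from a dim probe set. Its call was lost with sex as a covariate and without the 2 controls of low 5-prime actin, it was not among the probe sets kept without the dimmest 40%, and of 18 fits that each left out 1 array it held only without knockout retinas 3, 25 or 6. Of the genes directly beside the Abhd14 pair, Acy1 had 0.26 ± 0.18 and Pcbp4 0.26 ± 0.08 (limma adjusted p = 0.115). Pcbp4 passed with 16 added to the signals, with quantile normalization, without the 2 controls of low 5-prime actin and without control retina 14 at 4 months, and Nudt16, beside Mrpl3, passed without control retina 17. Beside Wdr82, Ppm1m had -0.28 ± 0.13, and beside Mrpl3, Cpne4 had 0.20 ± 0.18 and Nudt16 -0.55 ± 0.19. Beside Sc5d, Tbcel, 1 gene further than the dim Tecta, had 0.11 ± 0.11.

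**Figure D4:**
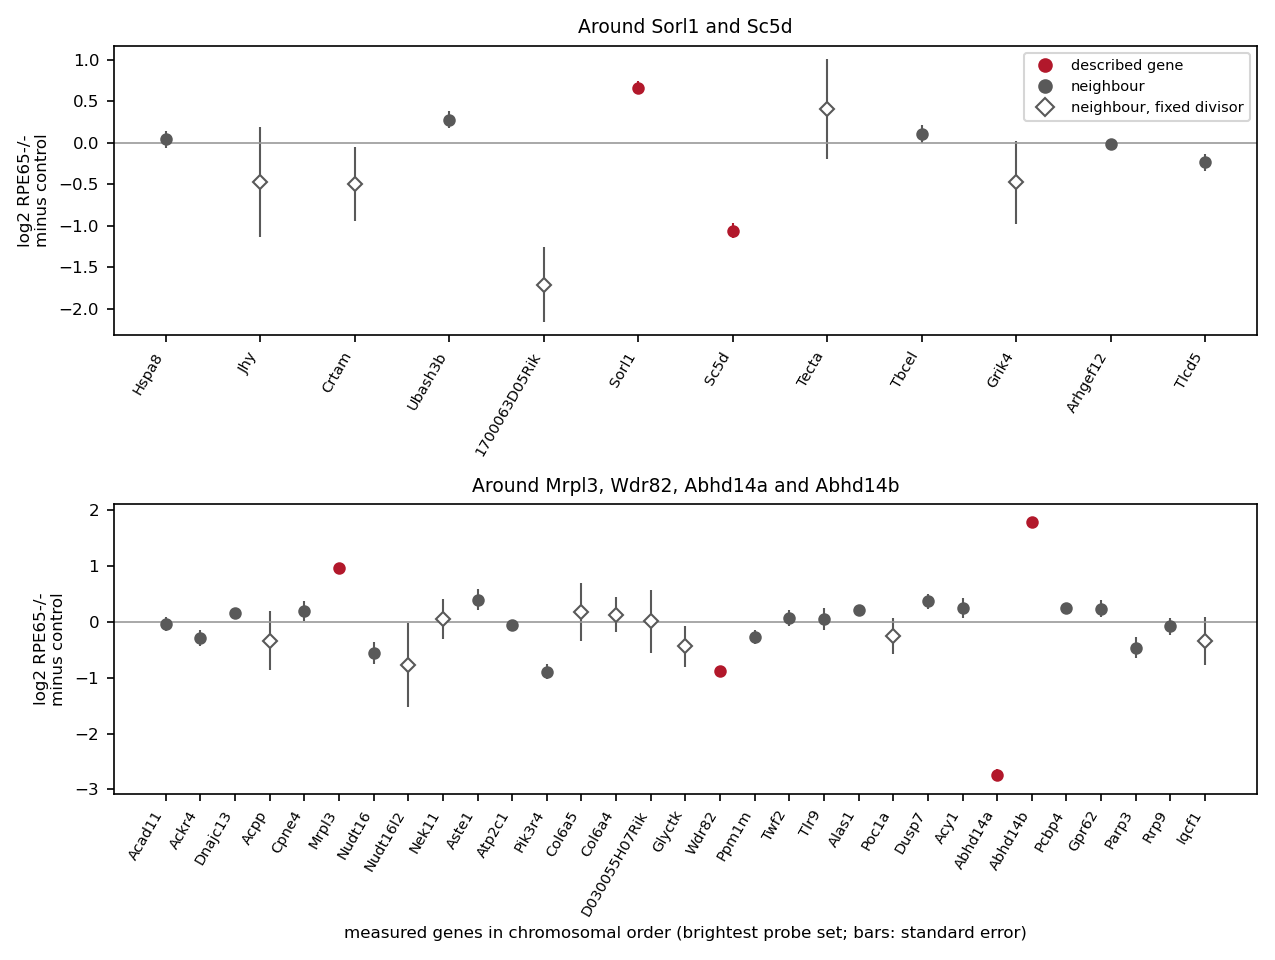
Log2 difference over the mean of the ages for the 6 genes (red) and 5 measured neighbours on each side, in chromosomal order; bars are standard errors and open symbols dim probe sets with a fixed reference. Abhd14a and Abhd14b stand on opposite sides of 0 with their nearest neighbours Acy1 and Pcbp4 at 0.26, and so do Sorl1 and Sc5d, where 1700063D05Rik beside Sorl1 is at -1.71 from a dim probe set.

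The 6 genes belong to 21 genes of chromosome 9, of 1002 measured, that passed at all 3 ages with 1 probe set per gene (10 higher, 11 lower), where 0.566% of all genes did. Chromosome 9 held 20.6% of the genes passing at all ages whose chromosome is known and 5.56% of the measured genes. Chromosome 11 followed by count, with 9 genes. By share of its measured genes chromosome 12 followed, with 1.29% passing at all ages against 2.1% on chromosome 9. Since the genes were picked on this pattern, it is given without a test.

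In chromosomal order Sorl1 and Sc5d were measured genes 227 and 228, followed by H2ax at 251, Ddx6 at 261, Scn2b at 276 and Fxyd6 at 281. Mrpl3 was 733, Wdr82 744, Abhd14a 752 and Abhd14b 753, and Pccb before them 710. Among places 201 to 300 there were 6 such genes, among 301 to 400 there were 5, and among 701 to 800 again 5. Directions were mixed in each stretch. In that of Sorl1 and Sc5d, though not directly beside them, the sodium channel subunit gene Scn2b had 0.79 ± 0.07 on the log2 scale over the ages. The ion transport regulator gene Fxyd6, in the same stretch, had -2.70 ± 0.18. In the stretch of Mrpl3, though not directly beside it, Pccb, which encodes a subunit of propionyl-CoA carboxylase, had 1.29 ± 0.10.

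**Figure D5:**
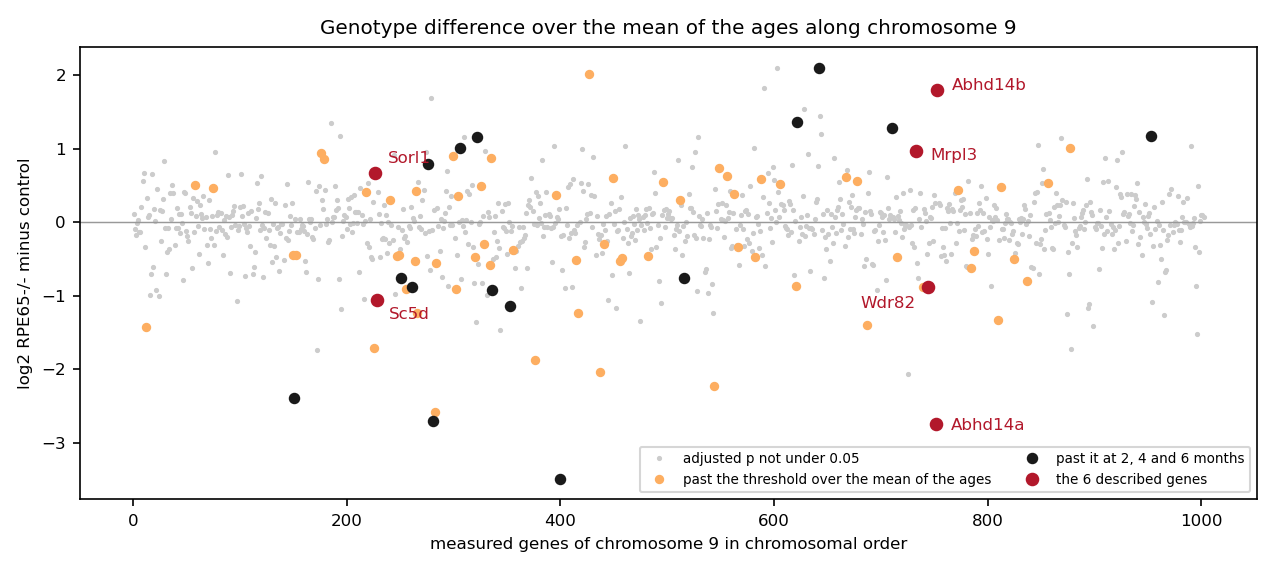
Log2 difference over the mean of the ages for the brightest probe set of 1002 measured genes of chromosome 9, by place in chromosomal order. Genes past the threshold at every age (black and red) lie on both sides of 0, with 6 in places 201 to 300 and 5 in places 701 to 800.

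The genes most like each of the 6 were found by the root mean square difference of centred log2 values over the 18 arrays, among 11266 genes. These values hold the genotype difference on which the 6 were chosen. Genes with a like genotype difference therefore come out near, and the likeness is a description that adds no support. Abhd14a was nearest to Fxyd6 (0.33), Msi2 (0.38) and Esco1 (0.40), where the median candidate was at 1.40. Abhd14b was nearest to Cuedc1 (0.25), Lsm12 (0.30) and Iqgap1 (0.30), against a median of 0.94. Wdr82 was nearest to Rab30 (0.17), Sik2 (0.18) and Ddx6 (0.19), against 0.53, and Sc5d to Tbc1d24 (0.15), Ddx6 (0.19) and Erp29 (0.22), against 0.61. Sorl1 was nearest to Thrsp (0.10), Nfix (0.15) and Mlc1 (0.16), against 0.44, and Mrpl3 to Akap6 (0.20), Gm5617 (0.22) and Scn2b (0.22), against 0.56. Of these genes, Fxyd6, Sik2, Ddx6, Gm5617 and Scn2b are on chromosome 9, and all of them passed at every age. Chromosome 9 held 20.6% of the genes passing at every age whose chromosome is known, and 5.56% of the measured genes. Their place on chromosome 9 thus repeats the pattern used in the choice, and nothing is read from it.

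Genes that work with the 6 were counted in 5 lists from the fit over all probe sets, where 4.65% of probe sets passed over the mean of the ages. With 1 probe set per gene in the fit, 5.66% of all genes passed. An unadjusted limma p under 0.05 was found for 17.6% of all genes. Of 16 other genes of cholesterol synthesis measured, 2 were higher and 1 lower over the mean of the ages, with a median log2 difference of 0.05 where all genes had 0.00. At an unadjusted limma p under 0.05 there were 4 of these 16. Squalene epoxidase, Sqle, rose by 0.45 ± 0.10 (limma adjusted p = 0.0131), Pmvk by 0.38 ± 0.10 (limma adjusted p = 0.0441), and Hsd17b7 was -0.53 ± 0.09 (limma adjusted p = 0.00205). With sex as a covariate only Sqle passed, and without the 2 knockouts of high lens signal only Hsd17b7. Of the 18 fits that each left out 1 array, Sqle and Hsd17b7 passed in all, and Pmvk in 3, those without knockout retina 3 at 2 months, control retina 11 at 2 months or control retina 1 at 6 months.

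None of 14 other VPS10 receptor and retromer genes passed (median 0.06; 1 at an unadjusted limma p under 0.05), beside Sorl1 itself. Of 13 other genes of the SET1 and PTW/PP1 complexes of Wdr82, only Ppp1ca, a PP1 catalytic subunit, passed, at 0.33 ± 0.07 (limma adjusted p = 0.0108). At an unadjusted limma p under 0.05 there were 4 of these 13. Of 46 other proteins of the large mitochondrial ribosomal subunit, Mrpl55 was lower, at -0.46 ± 0.10 (limma adjusted p = 0.0184), and it did not pass with sex as a covariate or without the 2 knockouts of high lens signal. At an unadjusted limma p under 0.05 there were 4 of these 46. Mrpl11 passed as higher with 16 added to the signals, without the dimmest 40% and without knockout retina 31 at 4 months. None of 19 other ABHD family genes passed (median -0.03; 3 at an unadjusted limma p under 0.05), and Abhd1 passed without control retina 3 at 6 months.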

How the data were processed

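Values were deposited by the authors as a ratio of each probe set's signal to a reference, 1 column per array. RMA (for 18 samples) and GCOS (for 16) are named in the submitters' processing notes, with no role given. From the values, 54.3% of probe sets were divided by their own median and 45.7% by a fixed divisor. With the fixed divisor, values lay within 0.02 of a whole step. For probe sets divided by their own median, whole-step signals were recovered with a tolerance of up to 0.06 of a step. The values' floor was 0.01. Of 45101 probe sets, 64 controls were left out, and 34945 naming 1 gene were kept (932 named several, 9160 none).

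The log2 ratios of all 18 arrays were fitted with limma 3.58.1 in R 4.3.3, with a mean for each of 6 groups (12 residual degrees of freedom), eBayes and Benjamini-Hochberg adjustment over all probe sets at 0.05. The script was tested on simulated data with 200 changed probe sets. The 95% intervals use 12 degrees of freedom. Tables were made with Python 3.11.15, pandas 2.3.3 and scipy 1.17.1.

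The members, lists and tests were chosen with earlier results of these data known. Named genes are all members, neighbours past the threshold (5 genes per side), chromosome 9 genes past it at all ages, the 3 nearest genes by likeness, and list genes past it. Of the chromosome 9 genes past it at all ages, those not described above are Glb1l3, Il18, Atm, Ppcdc, Tln2, Tpbg, 9330159M07Rik and Cck. Scn2b, Fxyd6 and Pccb were given with values as examples. Neighbours directly beside a member, Tbcel, and the genes just outside the threshold (up to 6 by rule) are named too; the neighbours not past the threshold, Mrpl11 and Abhd1 were chosen after their values were seen. Alternatives changed the offset, features, dim filter, normalization, centring, sex, arrays and replicates. Promoter windows come from RefSeq's GRCm38.p6 table. The array files name no build, and probe positions were not used here.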

Additional observations from a re-analysis of the deposited data

How the results depend on the processing

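For the members, all 8 probe sets past the threshold over the mean of the ages kept their direction under all of their 25 or 26 alternatives, from -2.78 to -2.49 for Abhd14a 1441945_s_at and from 0.62 to 0.75 for Sorl1 1426258_at. Sc5d 1424709_at, not past the threshold, turned to -0.04 without the 2 knockouts of high lens signal. None of the 14 passed in either age effect under any alternative. The number of neighbours past the threshold, recounted under alternatives added after seeing the data, was 1 to 3. Counts over all probe sets moved by more than 1.5 times as follows. At 2 months 402 became 657 with log2(signal + 16), 262 with 1 probe set per gene, 629 without the dimmest 40%, 239 with sex as a covariate, 53 with only the 6 arrays of the age, 252 without 2 controls of low 5-prime actin and 127 without 2 knockouts of high lens signal. At 4 months 371 became 649, 224, 579, 4 with only the 6 arrays and 232 without the low-actin controls. At 6 months 247 became 454 with the offset, 418 without the dimmest, 161 with sex and 38 with only the 6 arrays. Over the mean of the ages 1625 became 1029 per gene, 981 with sex and 987 without the high-lens knockouts. For 4 against 2 months 1 became 9 with the offset, 0 per gene (2821 probe sets had an unadjusted limma p under 0.05), 14 without the dimmest, 6 with quantile normalization, 2 centred, 6 with sex, 5 without the low-actin controls and 14 without the high-lens knockouts. For 6 against 2 months 605 became 1657 with the offset, 1735 without the dimmest, 1434 with quantile normalization, 1000 centred, 46 with sex, 311 without the low-actin controls and 34 without the high-lens knockouts. Leaving out each array in turn gave 206 (without control retina 11) to 455 at 2 months, 198 (without knockout retina 33) to 340 at 4 months, 149 (without knockout retina 6) to 289 at 6 months, 1307 to 1696 over the mean of the ages, 1 to 49 (without control retina 10) for 4 against 2 months and 56 (without knockout retina 5) to 979 (without control retina 14) for 6 against 2 months. Counts also moved by over 1.5 times without knockout retinas 2 (241) or 3 (223) at 2 months, 25 (241) or 31 (201) at 4 months and control retina 1 (159) at 6 months, and the 6 against 2 months count without 13 of the 18 arrays. The causes were not tested. No paired analysis was possible because the groups compared share too few retina numbers. The number of arrays, 3 per group, limits the precision.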
